A study of Mus musculus with 19 samples.

Results

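The 10 genes described here encode proteins of the cardiac Z-disc, of the intercalated disc or of the complexes that titin holds in the I-band. They were chosen by name, with earlier results of these data known: Ankrd1, Ankrd23, Xirp1, Xirp2, Nrap, Fhl1, Fhl2, Csrp3, Pdlim5 and Ldb3. On the array 19 of 25697 probes carried the symbol of 9 of them, and Xirp2 was not analysed here. Of the 19 probes, 18 passed the filter on dim probes, which 19273 probes of the array passed, and the remaining probe, of Nrap, was left out of the tests. Where a gene had several probes, its main probe was the brightest tested probe over all 19 arrays, and 12939 genes had such a probe. By mean intensity the main probes of the 9 genes ranked above 92.2% (Ldb3) to 99.9% (Csrp3) of all probes.

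The tissue was left ventricular myocardium of male mice, 12 to 20 weeks old, back-crossed to C57Bl6/J. All groups, control included, carried the MerCreMer transgene: Cre recombinase fused to mutated estrogen receptor, expressed from a cardiac-specific myosin heavy chain promoter and switched on in heart muscle cells by tamoxifen. The groups were control hearts taken at baseline (n = 5), hearts on day 2 (n = 4) and on day 3 (n = 3) of daily tamoxifen free base in peanut oil (1 mg a day, 40 mg/kg, intraperitoneal), hearts at day 10, after 5 days of tamoxifen and 5 more days (n = 3), and hearts at day 28, after 5 days of tamoxifen and 23 more days (n = 4), both followed on a normal diet. The series places the deepest dysfunction at day 10 and recovery by about 4 weeks, and its samples hold neither vehicle-injected hearts nor Cre-free hearts given tamoxifen, so that effects of the drug, of Cre and of time passed cannot be told apart. The labels number the arrays within a group without naming animals, and p-values measure the spread between these arrays.

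The Z-disc anchors the thin filaments of neighbouring sarcomeres, and with the elastic protein titin it takes up the load of each beat. Proteins bound there both hold the lattice together and carry signals of stretch to the nucleus: the ankyrin repeat proteins ANKRD1 (CARP) and ANKRD23 (DARP) bind the N2A segment of titin and can enter the nucleus, FHL1 and FHL2 are LIM-only proteins that bind its N2B segment, and CSRP3, or muscle LIM protein, links the Z-disc to signalling. PDLIM5 (ENH) and LDB3 (ZASP or Cypher) each join a PDZ domain that binds alpha-actinin to LIM domains that bind kinases. XIRP1 and XIRP2 carry Xin repeats that bind actin filaments at the intercalated disc, and NRAP, a nebulin-related protein with a LIM domain, takes part in myofibril assembly there.

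The sequences before the start of transcription are shown for the members with a motif match there and values on the array, because serum response factor, which binds the CArG box, and TEAD factors, which bind the MCAT element, are known regulators of muscle genes. RefSeq promoter entries (GRCm38.p6) matched 9 of the 10 members, in 15 windows; the member without an entry was Xirp1. Each window is the 250 bases before an annotated start, 5′ to 3′ on the gene's strand, and capitals mark matches, on either strand, to the CArG box (CC, then 6 bases of A or T, then GG), to MCAT (CATTCC, read as GGAATG on the other strand) or to AP-1 (TGANTCA). Of 32851 windows in the table, 1.47% held a CArG box, 12.6% an MCAT match and 6.75% an AP-1 match.
Fhl2, upstream start, chr1:43196762-43197011, minus strand: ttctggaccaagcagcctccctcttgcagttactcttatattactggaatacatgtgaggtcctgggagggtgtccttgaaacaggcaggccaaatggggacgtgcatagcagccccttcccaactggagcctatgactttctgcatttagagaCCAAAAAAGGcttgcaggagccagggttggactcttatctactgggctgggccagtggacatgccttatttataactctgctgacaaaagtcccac
Fhl2, downstream start, chr1:43163962-43164211, minus strand: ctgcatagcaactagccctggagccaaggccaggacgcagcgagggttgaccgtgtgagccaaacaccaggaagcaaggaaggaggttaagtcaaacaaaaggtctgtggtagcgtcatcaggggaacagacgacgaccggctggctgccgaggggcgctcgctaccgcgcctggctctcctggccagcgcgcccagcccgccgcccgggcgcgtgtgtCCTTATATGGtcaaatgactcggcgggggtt
Fhl1, upstream start, chrX:56779433-56779682, plus strand: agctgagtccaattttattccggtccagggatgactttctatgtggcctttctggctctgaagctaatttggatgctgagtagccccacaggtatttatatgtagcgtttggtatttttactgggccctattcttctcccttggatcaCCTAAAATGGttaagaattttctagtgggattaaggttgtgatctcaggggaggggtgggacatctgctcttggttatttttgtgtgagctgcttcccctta
Ldb3, upstream start, chr14:34588682-34588931, minus strand: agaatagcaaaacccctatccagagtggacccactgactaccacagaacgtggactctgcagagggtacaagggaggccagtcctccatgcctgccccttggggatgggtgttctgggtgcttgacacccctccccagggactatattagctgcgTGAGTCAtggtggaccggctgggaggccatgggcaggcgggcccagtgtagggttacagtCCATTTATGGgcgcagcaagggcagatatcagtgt
Ankrd1, chr19:36119845-36120094, minus strand: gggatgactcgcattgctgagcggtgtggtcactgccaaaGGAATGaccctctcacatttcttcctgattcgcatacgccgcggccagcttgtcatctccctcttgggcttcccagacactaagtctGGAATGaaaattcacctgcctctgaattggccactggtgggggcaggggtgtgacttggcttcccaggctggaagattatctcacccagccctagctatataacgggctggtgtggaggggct
Ankrd23, downstream start, chr1:36535740-36535989, minus strand: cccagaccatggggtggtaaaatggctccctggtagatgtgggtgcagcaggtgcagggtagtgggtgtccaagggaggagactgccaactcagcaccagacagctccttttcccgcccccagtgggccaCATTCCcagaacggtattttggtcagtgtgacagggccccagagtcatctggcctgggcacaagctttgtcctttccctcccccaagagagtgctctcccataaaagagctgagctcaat
Both Fhl2 windows, 1 of the 2 Fhl1 windows and both Ldb3 windows, which overlap, held a CArG box. Ankrd1 held 2 MCAT matches and Ankrd23 1, and the Ldb3 windows also held an AP-1 match, as did the window of Xirp2. The windows of Nrap, Csrp3 and Pdlim5 held none of these letters. A match is a description of the sequence, and no binding was measured.

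Across the time course the members fell into different patterns. Xirp1 and Ankrd23 were high during the injections, with their highest means at day 3, when Fhl2 and Pdlim5 were at their lowest. Fhl1 and Csrp3 were lower than control at day 3 and higher at day 10, when Ankrd1 was also higher. Ldb3 was lower at day 10, and Nrap passed the test in none of the 7 comparisons. At day 28 none of the 9 genes passed the test against control, and Xirp1 came nearest to it. All levels are log2 of the background-corrected intensity, and all changes are differences on that scale, called at a Benjamini-Hochberg adjusted p under 0.05 in limma. Fewer cells of a type and less RNA per cell cannot be told apart in these whole-tissue samples.

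**Figure D1:**
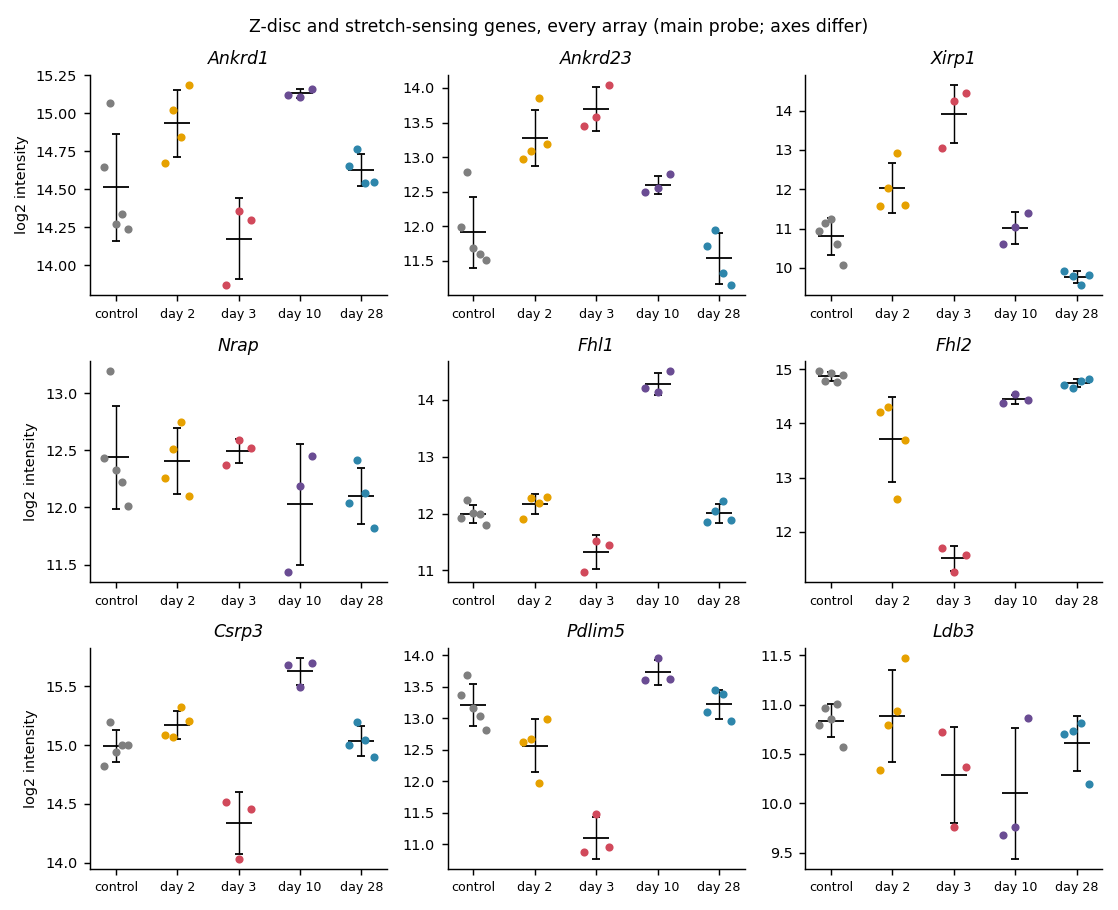
Log2 intensity (vertical axis, a different range for each gene) of the main probe of each of the 9 genes on every array, by group (horizontal axis), with the group mean and SD in black. Xirp1 peaks at day 3 with a mean of 13.91 where Fhl2 has its lowest mean, 11.52, and Fhl1 stands apart at day 10 with a mean of 14.28.

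Among the titin-bound ankyrin repeat genes, Ankrd23 was called higher than control at day 2, day 3 and day 10, and Ankrd1 at day 10 alone. Ankrd23 lay at 11.99, 12.78, 11.68, 11.59 and 11.51 in control hearts, at 12.97, 13.09, 13.86 and 13.18 at day 2, at 13.46, 13.58 and 14.05 at day 3, at 12.50, 12.56 and 12.75 at day 10, and at 11.72, 11.95, 11.32 and 11.15 at day 28. Every day 2 and day 3 heart lay above every control heart, whereas the day 10 and day 28 hearts overlapped the controls. Ankrd23 rose 2.58-fold at day 2 (log2 1.37 ± 0.22 SE, adjusted p = 0.000418) and 3.45-fold at day 3 (1.79 ± 0.24 SE, adjusted p = 3.53e-06). At day 10 it was 0.69 above control (adjusted p = 0.027), and this call was lost without any 1 of controls 3, 4 or 5 or of the 3 day 10 hearts (adjusted p = 0.05 to 0.103) and with controls 1 to 3 alone (adjusted p = 0.189). Day 3 was 0.42 above day 2, which did not pass the test (adjusted p = 0.288), and those groups overlapped. Ankrd23 fell by 1.09 at day 10 against day 3 and by 1.07 at day 28 against day 10 (adjusted p = 0.00265 and 0.00191).

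Ankrd1, a known marker of cardiac stress, had a main probe near the top of the intensity range, where its called rise came at day 10. Its main probe lay at 14.64, 15.07, 14.27, 14.34 and 14.24 in control hearts, at 14.67, 15.02, 14.85 and 15.19 at day 2, at 13.87, 14.36 and 14.30 at day 3, at 15.12, 15.11 and 15.16 at day 10, and at 14.65, 14.76, 14.54 and 14.55 at day 28. The day 10 hearts lay above every control, close together, while control 2 stood near them. The rise at day 10 was 0.62 ± 0.17 SE (adjusted p = 0.00431) at the main probe and 1.40 ± 0.21 SE (adjusted p = 8.28e-06) at the other, less bright probe, with values of 14.97, 15.07 and 15.23 at day 10 and of 13.28 to 14.45 in control. The highest log2 value of the table was 15.8. The differences at day 2 (0.42, adjusted p = 0.106) and day 3 (-0.34, adjusted p = 0.139) did not pass the test, although day 3 was lower than day 2 by 0.76 (adjusted p = 0.0028) and day 10 higher than day 3 by 0.96 (adjusted p = 0.00026). Without control 2, the day 2 rise at the main probe was called (0.56, adjusted p = 0.0132). At the less bright probe the day 2 difference, with all controls, was 0.53 (adjusted p = 0.112).

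Xirp1, whose product binds actin at the intercalated disc, had the largest rise among the members at day 3. It lay at 10.94, 11.14, 11.24, 10.61 and 10.07 in control hearts, at 11.58, 12.03, 12.92 and 11.60 at day 2, at 13.06, 14.25 and 14.44 at day 3, at 10.59, 11.05 and 11.40 at day 10, and at 9.91, 9.79, 9.56 and 9.81 at day 28. The day 2 and day 3 hearts were above all controls, the day 10 hearts overlapped them, and the 4 day 28 hearts were below all of them. Xirp1 rose 2.35-fold at day 2 (log2 1.23 ± 0.28 SE, adjusted p = 0.00659) and 8.66-fold at day 3 (3.11 ± 0.30 SE, adjusted p = 2.19e-08). It fell by 2.90 at day 10 against day 3 (adjusted p = 4.42e-07) and by 1.25 at day 28 against day 10 (adjusted p = 0.00323). The day 2 rise was called in 18 of 19 alternatives, and not with controls 1 to 3 alone (0.93, adjusted p = 0.0799). Day 2 replicate 3 stood highest in its group for Xirp1 (12.92) and Ankrd23 (13.86). The same array stood lowest in its group for Fhl2 (12.60) and Pdlim5 (11.97).

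At day 28 Xirp1 was 1.03 ± 0.28 SE below control, or at 48.9% of its level, with an adjusted p of 0.0531. Over 19 alternatives the difference ran from -1.34 to -0.92 and passed the test in 7, among them controls 1 to 3 alone (adjusted p = 0.00479) and the fits without control 4 (0.0417) or control 5 (0.013). Controls 4 and 5 had the lowest Xirp1 levels of the controls, and still lay above the day 28 hearts.

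Nrap, which serves myofibril assembly, did not pass the test at any time. Its main probe ranged from 12.01 to 13.19 in control, 12.10 to 12.75 at day 2, 12.37 to 12.59 at day 3, 11.44 to 12.45 at day 10 and 11.82 to 12.42 at day 28, so that every later group overlapped control. The difference at day 10 was -0.41, with a 95% interval of -0.87 to 0.05 (adjusted p = 0.168), and -0.63 with controls 1 to 3 alone (adjusted p = 0.0422). A less bright probe, assigned to another transcript of Nrap, differed by -0.11 at day 10 (adjusted p = 0.727).

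The LIM-only genes Fhl1 and Fhl2, whose products bind the same segment of titin, were both lowest at day 3. They differed in the depth of that low, and at day 10 Fhl1 was called above control while Fhl2 was not. Fhl2 lay at 14.96, 14.77, 14.93, 14.76 and 14.90 in control hearts, at 14.20, 14.31, 12.60 and 13.70 at day 2, at 11.71, 11.27 and 11.57 at day 3, at 14.37, 14.54 and 14.43 at day 10, and at 14.70, 14.65, 14.79 and 14.82 at day 28. The controls were tight, every day 2, day 3 and day 10 heart was below all of them, and day 2 replicate 3 stood lowest in its group. Fhl2 fell to 44.8% of control at day 2 (log2 -1.16 ± 0.21 SE, adjusted p = 0.00133) and to 9.82% at day 3 (-3.35 ± 0.23 SE, adjusted p = 1.84e-10). Without day 2 replicate 3 the day 2 difference was -0.79 (adjusted p = 0.00128). From that low Fhl2 was 7.63-fold higher at day 10 than at day 3 (2.93 ± 0.26 SE, adjusted p = 1.05e-08). At day 10 it was 0.42 below control, which did not pass the test with all groups in the fit (adjusted p = 0.181) and did with the day 10 and control hearts alone (adjusted p = 0.0123).

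Fhl1, better known for hypertrophic signalling at titin, fell less than Fhl2 at day 3 and stood above control at day 10. Its main probe lay at 11.92, 12.24, 12.01, 11.99 and 11.80 in control hearts, at 11.91, 12.28, 12.19 and 12.30 at day 2, at 10.97, 11.52 and 11.45 at day 3, at 14.20, 14.13 and 14.50 at day 10, and at 11.85, 12.05, 12.23 and 11.89 at day 28. The day 3 hearts were below all controls, the day 10 hearts far above them, and day 28 overlapped control. Fhl1 fell to 62.7% of control at day 3 (-0.67 ± 0.15 SE, adjusted p = 0.000906) and rose 4.89-fold at day 10 (2.29 ± 0.15 SE, adjusted p = 4.41e-11). It was 7.80-fold higher at day 10 than at day 3, and at day 28 it stood at 20.6% of its day 10 level (adjusted p = 9.87e-12 and 1.81e-10). The other probe of the gene gave -0.66 at day 3 and 2.35 at day 10, both called.

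Csrp3, mutated in some inherited cardiomyopathies, was called lower at day 3 and higher at day 10, as Fhl1 was. Its main probe lay at 14.82, 15.20, 14.94, 15.00 and 15.00 in control hearts, at 15.09, 15.07, 15.33 and 15.20 at day 2, at 14.51, 14.03 and 14.46 at day 3, at 15.68, 15.50 and 15.70 at day 10, and at 15.00, 15.20, 15.05 and 14.90 at day 28. Day 3 lay wholly below control and day 10 wholly above it, close to the highest value of the table. Csrp3 fell by 0.65 ± 0.13 SE at day 3 (adjusted p = 0.000335) and rose by 0.64 ± 0.13 SE at day 10 (adjusted p = 0.00029). Its other probes fell by 0.84 and 0.88 at day 3, and at day 10 differed from control by 0.41 (adjusted p = 0.0213) and 0.30 (adjusted p = 0.099).

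**Figure D2:**
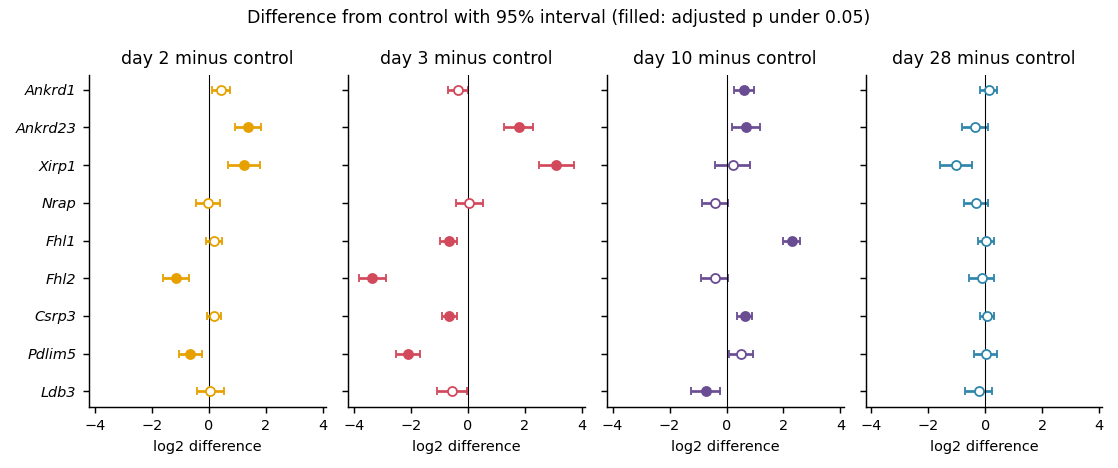
Difference from control (horizontal axis, log2) of the main probe of each gene (vertical axis) at the 4 later times, with 95% intervals from limma; filled points passed the test. At day 3 Xirp1 (3.11) and Fhl2 (-3.35) are the extremes, at day 10 Fhl1 (2.29), and at day 28 every point is open.

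Pdlim5, which joins alpha-actinin to protein kinase C, fell with Fhl2 at its main probe. That probe lay at 13.37, 13.69, 13.16, 13.03 and 12.81 in control hearts, at 12.62, 12.67, 11.97 and 12.98 at day 2, at 10.87, 11.49 and 10.96 at day 3, at 13.60, 13.95 and 13.62 at day 10, and at 13.10, 13.44, 13.38 and 12.95 at day 28. The day 3 hearts lay below all controls, and the day 2, day 10 and day 28 hearts overlapped them. Pdlim5 fell to 23.2% of control at day 3 (-2.11 ± 0.20 SE, adjusted p = 2.49e-08). The difference at day 2 (-0.65, adjusted p = 0.0365) was not called without any 1 of controls 1, 2 or 3 or of day 2 replicates 1, 2 or 3 (adjusted p = 0.0528 to 0.179), the value being -0.45 without replicate 3. The call was also lost with an offset of 16 (adjusted p = 0.0675) and with only the groups compared (0.0744). At day 10 Pdlim5 was 6.14-fold higher than at day 3 (adjusted p = 8.35e-09) and 0.51 above control (adjusted p = 0.0538). That difference from control was called in 5 of 18 alternatives, namely a filter at the 50th percentile (adjusted p = 0.0459), only the groups compared (0.0365), array weights (0.0385), without control 2 (0.63, adjusted p = 0.0168) and the mean of the gene's probes (0.67, adjusted p = 0.00218).

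Pdlim5 had 4 tested probes, and the platform table assigns them to 3 different transcripts of the gene. The brightest 3 fell at day 3, with differences from control of -2.11 at the main probe, -2.08 at ILMN_3137570, which belongs to the same transcript, and -2.26 at ILMN_2625458, which belongs to another. At day 2 ILMN_3137570 (-0.71, adjusted p = 0.0213) and ILMN_2625458 (-0.79, adjusted p = 0.0339) were also called lower. The dimmest (ILMN_2621862), of a further transcript, lay at 7.99, 7.65, 8.12, 7.90 and 7.52 in control hearts, at 7.55, 7.59, 7.78 and 7.54 at day 2, at 7.45, 7.86 and 7.68 at day 3, at 9.99, 9.86 and 9.52 at day 10, and at 7.38, 7.85, 7.66 and 7.66 at day 28. The day 10 hearts lay above every heart of the other groups, which overlapped each other. This probe differed from control by -0.22 at day 2 (adjusted p = 0.425) and -0.17 at day 3 (adjusted p = 0.466). It rose 3.87-fold at day 10 (1.95 ± 0.15 SE, adjusted p = 5.3e-10) and fell by 2.15 at day 28 against day 10 (adjusted p = 6.62e-10). The 95% interval of its difference at day 3 was -0.48 to 0.14. Its mean in control was 7.83 and that of the main probe 13.21, where the lowest log2 value over all probes was 5.67. Whether its low level limited a fall was not tested. At day 10 the other probes stood at 0.51 (main), 0.58 (ILMN_3137570, adjusted p = 0.0279) and -0.36 (ILMN_2625458, adjusted p = 0.286) against control.

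**Figure D3:**
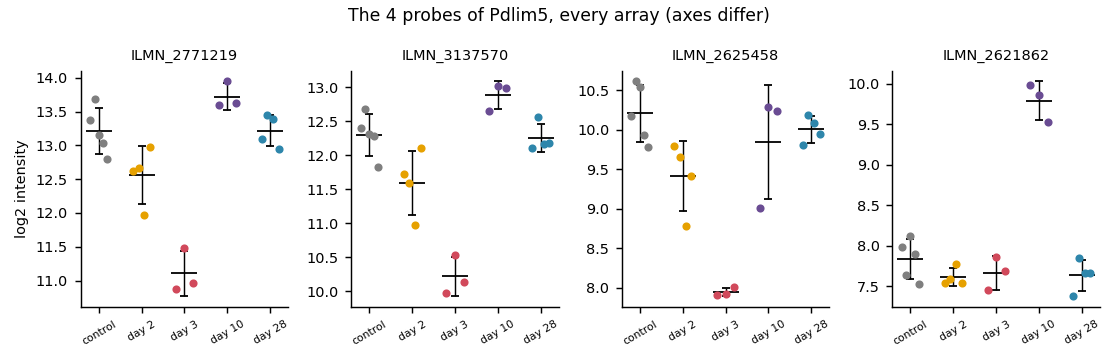
Log2 intensity (vertical axis, a different range for each probe) of the 4 probes of Pdlim5 on every array, by group (horizontal axis), with group mean and SD in black. The first 3 probes are lowest at day 3, and ILMN_2621862 stands apart at day 10 alone, with values of 9.52 to 9.99.

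Ldb3, mutated in some forms of dilated cardiomyopathy, varied more between hearts after control. Its main probe lay at 10.79, 10.96, 10.86, 11.00 and 10.57 in control hearts, at 10.34, 10.79, 10.94 and 11.47 at day 2, at 10.72, 9.76 and 10.37 at day 3, at 9.68, 9.77 and 10.87 at day 10, and at 10.70, 10.74, 10.81 and 10.20 at day 28. At day 10 replicate 3 lay within the control range and the others below it. The fall at day 10, 0.73 on the log2 scale (adjusted p = 0.0223), was not called without day 10 replicate 1 (-0.52, adjusted p = 0.175) or replicate 2 (-0.57, adjusted p = 0.144), nor with the mean of the gene's probes (-0.26, adjusted p = 0.224). Without day 10 replicate 3 the difference was -1.12 (adjusted p = 0.000779). A probe near the median of the array, assigned to another transcript of Ldb3, gave 0.21 at day 10 (adjusted p = 0.319).

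The members were chosen with earlier results of these data known, so no excess over the shares of all genes is read here or below. Beside all 12939 genes, members were called as follows. At day 2, 2 of 9 were higher and 2 lower than control, beside 3.95% of all genes higher and 3.11% lower. At day 3, 2 were higher and 4 lower, beside 15.1% and 14.8%. At day 10, 4 were higher (Ankrd1, Ankrd23, Fhl1 and Csrp3) and 1 lower, beside 18.2% and 19.2%. At day 28, 0 of 9 were called in limma, beside 1.33% and 0.757%, and 1 of 9, Xirp1, was under 0.05 before adjustment. The median size of the members' differences from control, either direction, was 0.42 at day 2, 0.67 at day 3, 0.62 at day 10 and 0.12 at day 28, beside 0.14, 0.23, 0.26 and 0.13 over all genes. These comparisons share the 5 control hearts.

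Between times, 1 member (Xirp1) was higher and 5 were lower at day 3 than at day 2, beside 9.31% and 10.7% of all genes. The 5 were Ankrd1, Fhl1, Fhl2, Csrp3 and Pdlim5. At day 10 against day 3 these same 5 genes were higher and Xirp1 and Ankrd23 lower, beside 16.3% and 16.6%. At day 28 against day 10, 0 members were higher and 5 were lower (Ankrd1, Ankrd23, Xirp1, Fhl1 and Csrp3), beside 16.2% and 15.4%. The last fall of Ankrd1 at its main probe (-0.51, adjusted p = 0.0286) was not called without any 1 of the 3 day 10 hearts or without day 28 replicate 3 or 4 (adjusted p = 0.0633 to 0.076). At the other, less bright Ankrd1 probe the difference was -0.84 (adjusted p = 0.00474).

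Related genes and probes were set against each other on the same arrays, by the change from control in 1 minus that in the other, with exact 2-sided permutation tests of the arrays adjusted over 12 tests; these pairs were taken up after their values were seen. The change of Fhl1 exceeded that of Fhl2 at day 2 (1.34), day 3 (2.67) and day 10 (2.71), with every treated heart beyond all controls. Ankrd23 exceeded Ankrd1, at its main probe, by 0.945 at day 2 and 2.12 at day 3, by 0.07 at day 10, and fell short of it at day 28 (-0.49). The near equality at day 10 depends on the Ankrd1 probe. The less bright Ankrd1 probe, not used in these tests, was 1.40 above control at day 10, where Ankrd23 was at 0.69. At day 28 that probe was at 0.57 (adjusted p = 0.136 in limma) and Ankrd23 at -0.38. The Pdlim5 probe ILMN_2621862 exceeded the main probe by 1.94 at day 3 and 1.44 at day 10, and differed from it by 0.43 at day 2 and -0.20 at day 28 (adjusted exact p = 0.36 and 0.416). This dimmer probe had a mean intensity in control of 309 against 9778 at the main probe, and whether that level limited its fall was not tested. Fhl1 and Fhl2 differed by 0.13 at day 28 (adjusted exact p = 0.416). The other values but that of the ankyrin pair at day 10 (adjusted exact p = 0.571) reached the smallest p that their group sizes allow, 0.0159 for 4 against 5 and 0.0357 for 3 against 5 hearts, and missed 0.05 after adjustment (adjusted exact p = 0.0536).

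Each gene was also centred on its mean over the 19 arrays, and the genes nearest to each member were ranked by the root mean square of the log2 difference between their centred values, as a description. Nearest to Fhl2, which had an SD of 1.23 over the arrays, was Fgf13, a modulator of sodium channels, at 0.24, followed by Retreg1 (0.35) and Mov10l1 (0.36). Nearest to Xirp1 (SD 1.43) were Hspa1l (0.41), Wfs1 (0.43) and Agt, the angiotensinogen gene (0.50). Fhl1 (SD 0.95) had Ears2 (0.36), Lgmn, a lysosomal protease gene (0.40), and Esd (0.41). Pdlim5 (SD 0.89) had Pkp2, a desmosome gene (0.25), Adk (0.30) and Camk2d (0.30), and Ankrd23 (SD 0.89) had Slc16a6, Ckb and Usp20 (0.38 to 0.39). The members that varied less had Uri1, Sltm and Hnrnpl (Ankrd1, 0.21 to 0.23), Gnao1, Cpd and Tcof1 (Nrap, 0.22 to 0.24), Fadd, Plpp1 and Ube2k (Csrp3, 0.17 to 0.18), and Gpat3, Kif21a and Cyc1 (Ldb3, 0.27 each). Among the members themselves the closest pair was Ankrd1 (SD 0.38) and Csrp3 (SD 0.40), at 0.27. The measure is not scaled to the spread, so genes that vary little lie closer by it.

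Other genes of the Z-disc, titin, the costamere and mechanosensitive transcription are given by their counts, to be read against the shares called over all genes, 3.95% higher and 3.11% lower at day 2, 15.1% and 14.8% at day 3, 18.2% and 19.2% at day 10, and 1.33% and 0.757% at day 28. Nothing particular to a list is read from these counts. Of 21 tested genes of the Z-disc core, 4 were higher and 1 lower at day 2, 7 and 4 at day 3, 7 and 6 at day 10, and 0 and 1 at day 28 (Palld, -0.69, adjusted p = 0.0495). Synpo2l, an actin-binding synaptopodin-like gene, had the largest rise at day 3 (1.63 ± 0.26 SE, adjusted p = 3.07e-05), and Mypn, which encodes myopalladin, a Z-disc partner of alpha-actinin, the largest fall at both day 3 (-1.64, adjusted p = 1.92e-05) and day 10 (-1.53, adjusted p = 2.83e-05). At day 10 the largest rise was that of Pdlim7, a PDZ-LIM gene like Pdlim5 (1.52 ± 0.17 SE, adjusted p = 1.63e-07). The median difference of the list was -0.10 at day 3 and -0.04 at day 10, beside -0.02 and -0.04 over all genes.

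Of 8 tested genes of titin, the M-band and titin-bound proteins, 0 were called in limma at day 2 (1 was under 0.05 before adjustment), 1 was higher and 2 lower at day 3, 1 and 4 at day 10, and 0 and 1 at day 28. Their median was 0.07 at day 3 and -0.71 at day 10. Ttn, titin itself, fell by 1.06 at day 3 (adjusted p = 0.00121) and was the gene still lower at day 28 (-0.88, adjusted p = 0.0353), and Trim63, the muscle ubiquitin ligase MuRF1, had the largest fall at day 10 (-1.87, adjusted p = 0.000143). The rise was that of Ankrd2, a relative of Ankrd1 and Ankrd23, which stood at 10.19 ± 1.97 at day 3 (SD, n = 3) and 8.20 ± 0.50 at day 10 (SD, n = 3), against 6.45 ± 0.15 in control (SD, n = 5). Its differences from control were 3.74 (adjusted p = 1.38e-05) and 1.75 (adjusted p = 0.0154), from a control level below the median of all probes, 6.83.

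At the costamere, which ties Z-discs to integrins, 1 of 16 genes was higher and 3 were lower at day 2, 4 and 10 at day 3, 5 and 5 at day 10, and 0 and 1 at day 28 (Vcl, vinculin, -0.52, adjusted p = 0.0311). The median was -0.57 at day 3 and 0.13 at day 10. Zyx, the adhesion protein zyxin that moves to strained actin, had the largest rise at day 3 (1.24) and day 10 (1.17). The largest falls were of Itgb1bp2, the stretch-sensing integrin partner melusin, at day 3 (-1.13, adjusted p = 5.41e-06) and of Lims2, an adaptor of integrin-linked kinase, at day 10 (-1.89, adjusted p = 7.76e-11).

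Of 10 tested genes of mechanosensitive transcription, 2 were higher and 2 lower at day 2, 3 and 2 at day 3, 2 and 0 at day 10, and 2 and 0 at day 28 (Ccn1, 2.62, and Ccn2, 1.22). The genes called at day 28 in these lists were named after their values were seen. Ccn2, a connective tissue growth factor and known target of YAP and TEAD, had the largest rise at day 3 (2.49) and day 10 (2.66, adjusted p = 1.5e-08). Yap1 itself had the largest fall at day 3 (-0.88, adjusted p = 0.000112), and at day 10 it was at -0.30 (adjusted p = 0.145).

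**Figure D4:**
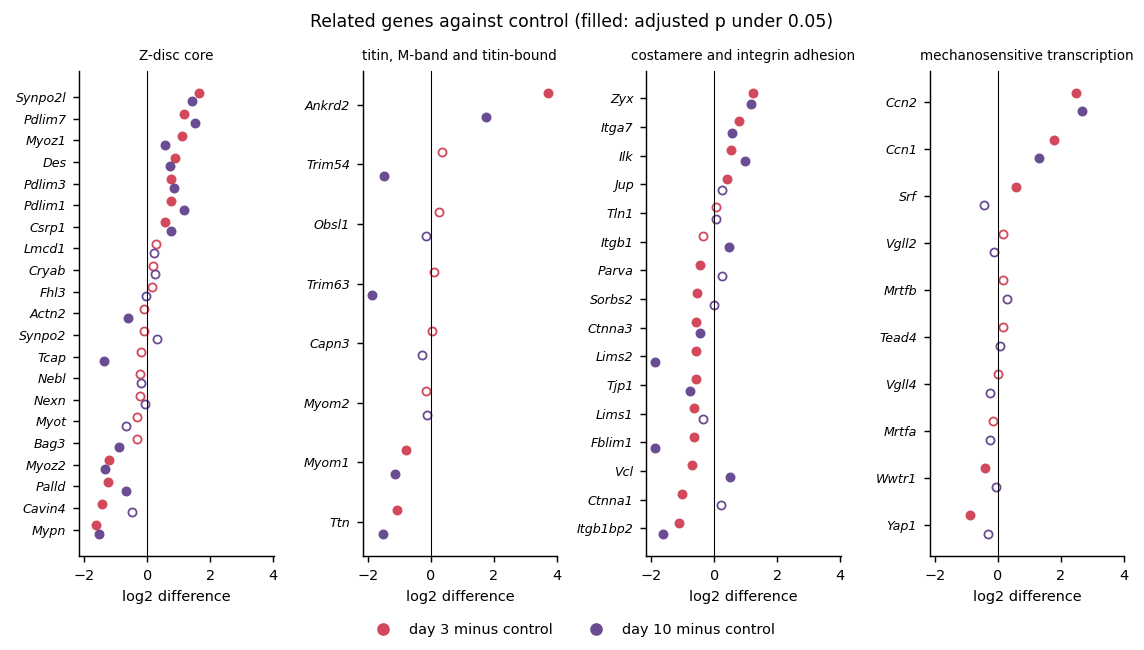
Difference from control (horizontal axis, log2) of the tested genes of 4 related lists (vertical axis, gene symbols) at day 3 and day 10; filled points passed the test. In each list at day 3 some genes lie right and others left of 0, from Ankrd2 at 3.74 to Mypn at -1.64.

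Markers of the cells in the samples are given by their counts, to be read against the shares called over all genes. Those were 3.95% higher and 3.11% lower at day 2, and 15.1% and 14.8% at day 3. At day 10 they were 18.2% and 19.2%, and at day 28 1.33% and 0.757%. Counts near these shares are not read as changes of a cell type. At day 2, 1 of 8 ventricular cardiomyocyte markers was higher and 2 were lower, and 2 of 7 skeletal muscle markers were higher; of the atrial, smooth muscle, fibroblast, macrophage and endothelial markers none was called in limma then. All 8 tested of 9 ventricular cardiomyocyte markers lay above the array median, and their summed intensity was 220085 to 231731 at day 3 and 187282 to 209445 at day 10, against 238101 to 264419 in control; 1 marker was higher and 3 lower at day 3, and 5 were lower at day 10. At day 28, when none of these was called, the sum was 223080 to 235165, also below every control heart. Macrophage markers summed to 6897 to 12869 at day 3 (2 of 5 higher) and 20705 to 39384 at day 10 (5 of 5 higher), against 2514 to 5492 in control. Fibroblast markers summed to 21989 to 25390 at day 3 (1 of 7 lower), 27895 to 33940 at day 10 (4 higher) and 36718 to 46474 at day 28 (2 higher), against 26278 to 34336 in control. Of smooth muscle markers 1 of 5 was higher at day 3, and 2 were higher and 2 lower at day 10; of endothelial markers 1 of 6 was lower at day 3 and 3 at day 10. The endothelial sum was 6987 to 8144 at day 10, below the 8318 to 11215 of control with no overlap. At day 28, 1 endothelial marker was higher, and their sum was 12366 to 13161, above control with no overlap. Of skeletal muscle markers 4 of 7 were higher at day 3, and 2 were higher and 1 lower at day 10, and of atrial markers 4 of 5 were higher at day 3, and 1 was higher and 1 lower at day 10. The atrial sum was 51904 to 54285 at day 10, above the 11805 to 47772 of control with no overlap. The part of any of these markers in the changes of the members was not tested. No value of the table was 0, and the least bright markers (Bmp10, Casq1, Cnn1, Kdr and Myh1) averaged under the array median.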

How the data were processed

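Left ventricular RNA of 19 hearts was extracted with TRIzol, made into biotinylated cRNA and hybridised to Illumina arrays, per the labels' protocols. The deposited values are the intensity of each of 25697 probes on a linear scale. Their sorted values were identical on all 19 arrays, with a median of 191, so the authors had quantile-normalized them; whether background was subtracted is not given in the sources used here. A second deposited table with 38 columns of signals and detection p-values was not used, because its column names match no sample label, so no detection calls were used here.

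The intensities were corrected with limma's normexp (offset 50) and taken to log2, which understates the changes of dim probes, and probes under the 25th percentile of mean intensity (163) were left out. A model with 1 mean per group was fitted in limma 3.58.1 (R 4.3.3) and tested on simulated data first. In the platform annotation 23978 probes had 1 gene symbol, 1719 none and 0 several, and 23962 matched RefSeq by gene ID, which updated older symbols. Permutation tests used scipy 1.17.1. The text names every member, the called gene with the largest rise and that with the largest fall of each related list at day 3 and at day 10, and the 3 genes nearest to each member. Members, lists and tests were chosen with earlier results of these data known. The number of arrays limits the precision. Alternatives were no background correction, an offset of 16, other filters and variances, array weights, a 2-fold threshold, fewer groups or controls, a replicate block, the mean of a gene's probes, and each array left out.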

Additional observations from a re-analysis of the deposited data

Results flagged for a closer look

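Of 54 groups of 4 or 5 hearts at the tested probes of the members, 3 held a heart apart from the others by Dixon's criterion, which chance exceeds in about 1 group in 20. The less bright Fhl1 probe ILMN_2713285 read 11.74 in day 28 replicate 1, below 12.08 to 12.13 in the other day 28 hearts. The Csrp3 probe ILMN_2789651 read 13.74 in control 1, below 14.03 to 14.11 in the other controls. The Pdlim5 probe ILMN_3137570 read 12.56 in day 28 replicate 2, above 12.11 to 12.18 in the others.

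In 3 genes a probe was called in opposite directions at different times against control. The difference between the times is the later difference from control minus the earlier one in the same limma fit, so that it follows from the choice of these probes and is given as a size, with no p. The Fhl1 probes ILMN_3117381 and ILMN_2713285 were higher at day 10 than at day 3 by 2.96 and 3.02. The Csrp3 probes ILMN_2789650 and ILMN_2742068 were higher at day 10 than at day 3 by 1.29 and 1.25. The Pdlim5 probe ILMN_3137570 was higher at day 10 than at day 2 by 1.28 and than at day 3 by 2.66.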

How the results depend on the processing

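No difference of a member that was called, by the fit reported or by the alternative, changed sign; of 1116 values of single genes 25 lost and 27 gained a call, and 43 differences, called neither way, changed sign. With array weights these became -0.060 (Ldb3, day 2), -0.016 (Nrap, day 3), -0.0037 (Fhl1, day 28) and -0.055 (Pdlim5, day 28) against control. With the mean of a gene's probes they became 0.0060 (Nrap, day 2), -0.042 (Nrap, day 3), -0.012 (Csrp3, day 28) and -0.11 (Pdlim5, day 28) against control, -0.048 (Nrap, day 3 against day 2), 0.026 (Ldb3, day 10 against day 3) and -0.048 (Nrap, day 28 against day 10). With controls 1 to 3 alone they became -0.16 (Nrap, day 3), -0.092 (Xirp1, day 10), -0.037 (Ankrd1, day 28), -0.052 (Fhl1, day 28) and -0.19 (Pdlim5, day 28) against control. Leaving out 1 array, differences from control ran from -0.15 to 0.16 (Nrap, day 2), -0.15 to 0.23 (Ldb3, day 2), -0.051 to 0.24 (Nrap, day 3), -0.061 to 0.074 (Fhl1, day 28), -0.0095 to 0.097 (Csrp3, day 28) and -0.094 to 0.13 (Pdlim5, day 28), and between times from -0.013 to 0.20 (Nrap, day 3 against day 2), -0.56 to 0.037 (Ldb3, day 10 against day 3) and -0.22 to 0.29 (Nrap, day 28 against day 10).

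Over all probes, the calls numbered 1279 at day 2, 5470 at day 3, 6894 at day 10 and 347 at day 28 against control, 3612 at day 3 against day 2, 6053 at day 10 against day 3 and 5791 at day 28 against day 10. With a fold of at least 2 they numbered 144, 1292, 2134, 69, 699, 1837 and 1608 in the same order, and the members called were 1 in place of 5 at day 10 against control, 3 in place of 6 at day 3 against day 2 and 3 in place of 5 at day 28 against day 10. At day 28 against control the count over all probes was 222 with an offset of 16, 1583 with array weights and 1874 with controls 1 to 3 alone, and 1 member, Xirp1, was called with no filter, only the groups compared, array weights or controls 1 to 3 alone. Array weights gave 5666 at day 3 against day 2, and controls 1 to 3 alone gave 731 at day 2. The cause of these shifts was not tested, apart from the fold threshold, which removes calls by construction.

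Leaving out 1 array at a time gave 814 (without day 2 replicate 3) to 1241 calls at day 2 against control, 4234 to 5260 at day 3, 5766 to 6870 at day 10 and 105 to 772 at day 28 (105 to 182 without control 1, 2 or 3 or day 28 replicate 2, 3 or 4, and 679 or 772 without control 4 or 5), and 2241 (without day 3 replicate 2) to 3924 at day 3 against day 2, 5007 to 5826 at day 10 against day 3 and 4598 to 5325 at day 28 against day 10. Members called ranged from 3 to 4 at day 2, 6 to 7 at day 3, 3 (without day 10 replicate 1 or 2) to 6 at day 10 and 0 to 1 at day 28, where the call came without control 4 or 5, and from 6 to 7, 7 to 7 and 4 to 5 in the comparisons between times.

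Hearts with the same number in different groups did not visibly deviate together. Correlations were -0.16 to 0.13 between same-numbered arrays and -0.19 to 0.20 between others. The numbers were therefore not used as pairs in the fit reported, although 3 or 4 pairs in a comparison are too few to exclude a pairing. With the replicate number as a block, 816 probes and 1 member (Xirp1) were called at day 28 against control, Ankrd23 was not called at day 10 (adjusted p = 0.124) and Nrap was (-0.62, adjusted p = 0.00938). Under that block, differences not called changed sign to -0.020 (Ldb3, day 2), -0.15 (Nrap, day 3), -0.053 (Xirp1, day 10), -0.035 (Fhl1, day 28) and -0.094 (Pdlim5, day 28) against control, and to -0.012 (Nrap, day 3 against day 2). The main probes of Csrp3 and Ankrd1 lie near the top of the intensity range, and no detection calls bear on the dimmest probes.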
